A study of Mus musculus with 30 samples.

Results

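Mir6236, Mir6239, Mir6538 and Mir6240 are mouse microRNA precursors with high catalogue numbers, a kind of entry that was added to microRNA catalogues from deep sequencing. All features with one of these 4 symbols were taken from each organ's table, which gave 4 of the 2194 named features in every organ. They were picked with their heart fold changes and their levels known, so both are given as a description, with no test. Small RNA was sequenced from 6 untreated male mice at an age of 4 months, in brain, heart, kidney, liver and spleen. The labels call 3 of them Ftsj1_DF, deficient in Ftsj1, and the other 3 WT. Each organ gave 3 Ftsj1_DF and 3 WT libraries, 30 in all, from whole tissue. Some of the mice were brothers, per the labels, and p-values measure the spread between these animals. Strain and kind of mutation are not given in the labels. Ftsj1 itself is an mRNA and stands in no small RNA table, which leaves the genotype unchecked.

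MicroRNAs are cut from hairpin transcripts by Drosha and Dicer, and the mature strand pairs with messenger RNA through its seed, bases 2 to 8. A precursor's read count in a table holds whatever small RNA was assigned to that place in the genome. Late entries have been questioned where their sequence resembles ribosomal or other abundant RNA. The FTSJ1 protein is a methyltransferase of tRNA, which it marks with 2'-O-methyl groups. The comparison asks how its loss alters small RNA in each organ. Gm symbols are provisional mouse gene names, and 1004 features of the tables carry one.

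The authors' deposited tables hold a mean normalized count, a log2 fold change from DESeq2 with its standard error (SE), and p-values for each feature, with no values for single libraries. Which genotype is in the numerator is not named. A positive fold change means more reads in 3 of an organ's libraries, the positive side, than in the 3 of the negative side, and signs are compared between organs as if all 5 tables had been made the same way round. Whole reads per library were recovered for 17 of the 20 combinations of member and organ, since each mean is a sum of whole reads over 6 size factors. The factors ranged from 0.50 to 2.37 over the 5 tables, each normalized on its own. Within heart they ran from 0.605 to 2.37 and within liver from 0.50 to 2.15, so depth differed several-fold within these organs. The libraries are numbered by falling factor within a side. A number links no library between organs or to a mouse. Heart, kidney and liver each include 1 WT library of a second batch, which could not be told from the others, so no value within a batch can be given there. In liver all 3 libraries of the positive side had lower factors, 0.729 to 0.50, than the 3 of the negative side, 2.15 to 1.45.

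The mature sequences that RefSeq (GRCm38.p6) gives for the 4 members are shown because their base composition sets 3 of them apart from most microRNAs. Capitals mark the seed.
mmu-miR-6236: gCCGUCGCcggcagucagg
mmu-miR-6239: uAGCGUUGgaucacucggug
mmu-miR-6538: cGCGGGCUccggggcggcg
mmu-miR-6240: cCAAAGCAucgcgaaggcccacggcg

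None of the 4 shared its seed with another of them. Only miR-6351 carried the seed of miR-6239, and its precursor had a mean of 0 in all 5 organs. The seed of miR-6240 was also that of miR-330-3p, whose precursor Mir330 had a mean of 19074 in brain and 229 to 1361 in the other organs, in the authors' deposited tables. Mir330 was thus high where Mir6240 was lowest. G and C made up 94.7% of miR-6538, more than in 99.8% of the 1738 mature mouse sequences. They made up 78.9% of miR-6236, 69.2% of miR-6240 and 55% of miR-6239, against a median of 52.2%. CpG pairs numbered 5 in miR-6538, 4 in miR-6240, 3 in miR-6236 and 2 in miR-6239. At least 3 were found in 2.88% of mature sequences.

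Of the hairpins, those of Mir6538 and Mir6240 were matched in the RefSeq table. They are shown, with the mature part in capitals, to place it in its precursor.
Mir6538 hairpin: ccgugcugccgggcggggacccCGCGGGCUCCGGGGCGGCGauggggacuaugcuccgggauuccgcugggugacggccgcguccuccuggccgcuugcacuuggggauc
Mir6240 hairpin: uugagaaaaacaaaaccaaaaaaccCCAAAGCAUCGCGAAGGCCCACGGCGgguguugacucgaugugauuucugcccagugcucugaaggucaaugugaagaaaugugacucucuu

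The Mir6538 hairpin had 75.5% G and C over 110 bases, and that of Mir6240 47.0% over 117 bases. By GRCm38.p6 coordinates, miR-6236 lies at chr9:110281353-110281371 on the plus strand and miR-6240 at chr5:114851973-114851998 on the plus strand. Neither overlaps another GENCODE vM21 gene. For miR-6538 the place is chr12:26414970-26414988 on the minus strand, in an intron of Rnf144a, which is read from the same strand. For miR-6239 it is chr14:117953768-117953787 on the minus strand, in an intron of Gpc6, which is read from the opposite strand. The mature sequences were also laid without gaps along 354 annotated rRNA transcripts, 2 mitochondrial rRNAs and 22 mitochondrial tRNAs. The best match covered 14 of 20 bases of miR-6239, 13 of 19 of miR-6236 and of miR-6538 and 17 of 26 of miR-6240, the last being 65.4%. The median over all mature sequences was 66.7%, and 15.5% of them matched at least as well as miR-6239. The 45S ribosomal repeat, which holds 18S, 5.8S and 28S, was not used here, so a resemblance to those RNAs was not tested.

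The organ labels were checked on one known microRNA each. Mir9-2 of neurons was highest in brain (6.16%), Mir1a-1 of muscle in heart (7.45%), Mir10a in kidney (6.38%), Mir122 of hepatocytes in liver (26.2%) and Mir150 of lymphocytes in spleen (1.09%). In whole tissue, fewer cells of a type and less RNA per cell cannot be told apart.

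All 4 members were far higher in heart and spleen than in brain. Mir6236 drew by far the most reads. It held 1.02% of the summed means in spleen, 0.898% in heart, then 0.127% in kidney, 0.0371% in liver and 0.00800% in brain, a span of 128-fold. In the authors' deposited tables its means were 109698, 76425, 27746, 7027 and 1289 normalized counts in those organs. It ranked 20 of 1208 features with reads in spleen and 204 of 1030 in brain. Mir6240 held 0.0168% in spleen, 0.0165% in heart, then 0.00211% in kidney, 0.000712% in liver and 0.000163% in brain, a span of 104-fold. The order of organs was thus that of Mir6236.

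Mir6239 showed that order too, at 0.00780% in spleen, 0.00565% in heart, then 0.00107% in kidney, 0.000582% in liver and 0.000189% in brain, a span of 41.4-fold. Mir6538 was highest in heart, at 0.0117%, ahead of 0.00403% in spleen, 0.000825% in kidney, 0.000183% in liver and 5.31e-05% in brain, a span of 220-fold. The name of abundant precursor fits Mir6236 best in spleen and heart, where it ranked 20 and 30, while in brain it ranked 204. The other 3 ranked between 133 and 539. In brain Mir6538 had a mean of 8.57 in the authors' deposited table, with 60 reads over 6 libraries and none in 1 of them.

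**Figure D1:**
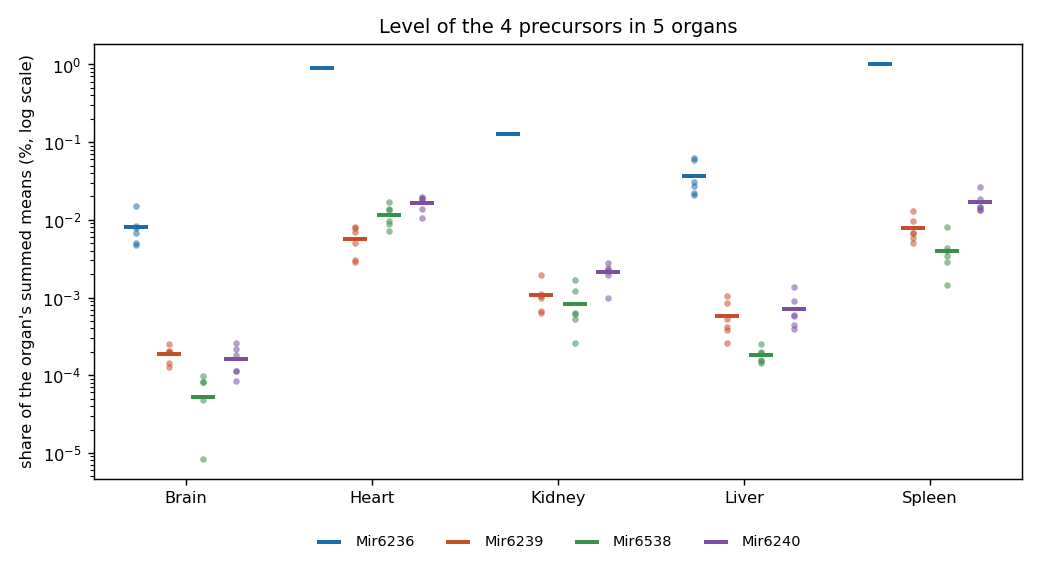
Share of each organ's summed mean normalized counts held by the 4 precursors, in percent on a log scale. Bars are deposited means as shares, and points are the 6 libraries where their reads were recovered (none for Mir6236 in heart, kidney and spleen, and 1 brain library of Mir6538 at 0 is not drawn). The bars of heart and spleen stand above those of kidney, liver and brain for each precursor, while single libraries of Mir6538 overlap between spleen and kidney.

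Neighbours in this order were compared by the range of the 6 libraries, as normalized counts over the organ's summed means. For Mir6240 the spleen libraries ran from 0.0133% to 0.0268% and the heart libraries from 0.0107% to 0.0197%, so these organs overlapped. The kidney libraries, 0.000991% to 0.00281%, lay below both. Kidney and liver overlapped, and liver, 0.000391% to 0.00135%, lay above brain, 8.38e-05% to 0.000263%. Mir6239 had the same overlaps, spleen with heart and kidney with liver. For Mir6538 heart overlapped with spleen and spleen with kidney, where the ranges were 0.00144% to 0.00815% and 0.000263% to 0.00169%. Its kidney, liver and brain ranges were apart. For Mir6236, whose reads were recovered in brain and liver, liver at 0.0211% to 0.0623% lay above brain at 0.00475% to 0.0151%. Each table had its own normalization, and the order of organs is a description.

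The members did not keep fixed proportions. Reads of Mir6236 were 60.6 times those of Mir6240 in spleen, 60.3 times in kidney, 54.5 in heart, 52.1 in liver and 49.2 in brain, as ratios of deposited means with no allowance for length. That ratio moved little between organs whose levels spanned over 100-fold. Reads of Mir6236 were 254 times those of Mir6538 in spleen but 76.8 times in heart. Against Mir6239 they were 159 times in heart, 131 in spleen, 119 in kidney, 63.8 in liver and 42.4 in brain. Within single libraries the ratio of Mir6236 to Mir6240 ran from 36.7 to 64.9 in liver and from 31.9 to 82.7 in brain, a wider range than that between the organ means.

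The organ pattern of the members was also that of many Gm-named features. Gm-named features together held 2.55% of the summed means in heart and 2.06% in spleen, but 0.440% in kidney, 0.285% in liver and 0.182% in brain. Most of this in heart and spleen was Gm54610, at 1.53% and 1.12%, and Gm54588, at 0.567% and 0.577%. Of the 24 Gm-named features with a mean of at least 10 in every organ, 19 (79.2%) were higher in both heart and spleen than in the other 3 organs. The same was seen for 31 of 219 features (14.2%) named Mir1 to Mir499 or Mirlet7, the long-established microRNAs. Over all 326 features that reached this level in every organ, 3 of the members included, it was 66 (20.2%). These counts describe organs of the same 6 mice and were not tested.

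The features most like each member by level were picked by the Pearson correlation of log2 share over the 5 organs, among 323 features. Gm54587 (r = 0.9994), Gm55532 (0.9994) and Gm54521 (0.9971) were closest to Mir6236. Mir6240 was closest to Gm55532 (0.9991), Gm54588 (0.9985) and Gm54587 (0.9979). Those of Mir6239 were Gm54588 (0.9973), Gm54587 (0.9932) and Gm55532 (0.9923). Mir6538 was nearest to Mir3963 (0.9993), ahead of Gm55094 (0.9963) and Gm54611 (0.9953). Mir3963 is from a list, chosen here from general knowledge, of entries often noted to overlap other RNAs. Membership of that list is not certain. Among the 20 features most like a member, 12 or 13 were Gm-named, while 24 of the 323 compared were. Each correlation rests on 5 points that share libraries, and none was tested.

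Of 9 other features with numbers next to the members (Mir6234 to Mir6249 and Mir6535 to Mir6546), 4 to 7 had reads in an organ. Only Mir6540 in brain, at a mean of 646, and Mir6541 in spleen, at 52.0, reached 10 in the authors' deposited tables. Of the 205 other features between Mir6000 and Mir6999, the highest mean in heart was 117 for Mir6516 and in spleen 283 for Mir6969, in the authors' deposited tables. In these organs all 4 members lay higher. In kidney the highest was Mir6988 at 169, just below Mir6538 at 180, in the authors' deposited table. In liver Mir6516 at 136 and Mir6988 at 125 were near Mir6240 at 135 and above Mir6239 at 110 and Mir6538 at 34.7, in the authors' deposited table. In brain Mir6540 at 646, Mir6988 at 298 and Mir6944 at 296 were above all members but Mir6236, in the authors' deposited table. Mir6238, next in number to Mir6239, had a mean of 2.86 in heart in the authors' deposited table.

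In heart, all 4 members had positive log2 fold changes, and the description of that organ draws on the values for which they were picked. By the authors' deposited table, 4 of the 355 with an adjusted p (1.13%) passed 0.05 in heart by DESeq2, and Mir6239 was the only member among them. Those features were Gm56194, Gm54453 and Mir6239 with positive values and Mir34b with a negative one. At an unadjusted p of 0.05, 3 of the 4 members passed in heart, where 5.33% of features did so, and no test is drawn from this.

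Mir6239 in heart had 590, 678 and 696 normalized counts on the positive side, against 256, 424 and 241 on the negative side. Every library of the positive side thus lay above every one of the negative side. The side means were 655 ± 56.5 (positive) and 307 ± 102 (negative; SD, n = 3 each), a ratio of 2.13. The authors' deposited table gave a log2 fold change of 1.09 (SE 0.29) with a DESeq2 adjusted p of 0.0226. It was 0.0705 when the same p-values were adjusted over all 1107 features with one. Without any 1 library the log2 ratio of side means stayed between 0.95 and 1.40.

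Mir6538 in heart had 1463, 1170 and 1152 normalized counts on the positive side, against 822, 742 and 620 on the negative side. The sides did not overlap, and their means were 1262 ± 174 and 728 ± 102 (SD, n = 3 each). In the authors' deposited table the log2 fold change was 0.79 (SE 0.24), with a DESeq2 adjusted p of 0.0553. Mir6240 had 1679, 1560 and 1607 normalized counts on the positive side, against 909, 1482 and 1171 on the negative side. Its sides were apart by a narrow gap, 1560 against 1482. The authors' deposited table gave it a log2 fold change of 0.45 (SE 0.24) and a DESeq2 adjusted p of 0.455. Without the library at 909 the log2 ratio of side means was 0.28. Thus 3 of 3 recovered members had the positive side wholly above the negative side in heart, as had 7.02% of the other recovered features. The 7.02% is over 285 features, and 138 others with a mean of at least 10 were not searched.

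Mir6236 in heart held too many reads for single libraries to be recovered. Its log2 fold change in the authors' deposited table, 0.82 (SE 0.28, DESeq2 adjusted p 0.0990), corresponds to side means near 97533 and 55317 normalized counts on the positive and negative sides. The features next above and below the members by mean were positive in 5 of 8 cases in heart (median 0.07), 5 of 8 in brain and kidney, and 4 of 8 in liver and spleen. Mirlet7d and Mir16-2, just above and below Mir6236, had -0.60 and 0.09 as log2 fold changes in the authors' deposited table. Mir1198 and Mir130a, around Mir6239, had -0.26 and 0.08 in the authors' deposited table. Around Mir6538 and Mir6240, Mir541, Mir29b-2, Mir132 and Mir5099 had -0.46, 0.24, 0.25 and 0.05 in the authors' deposited table.

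**Figure D2:**
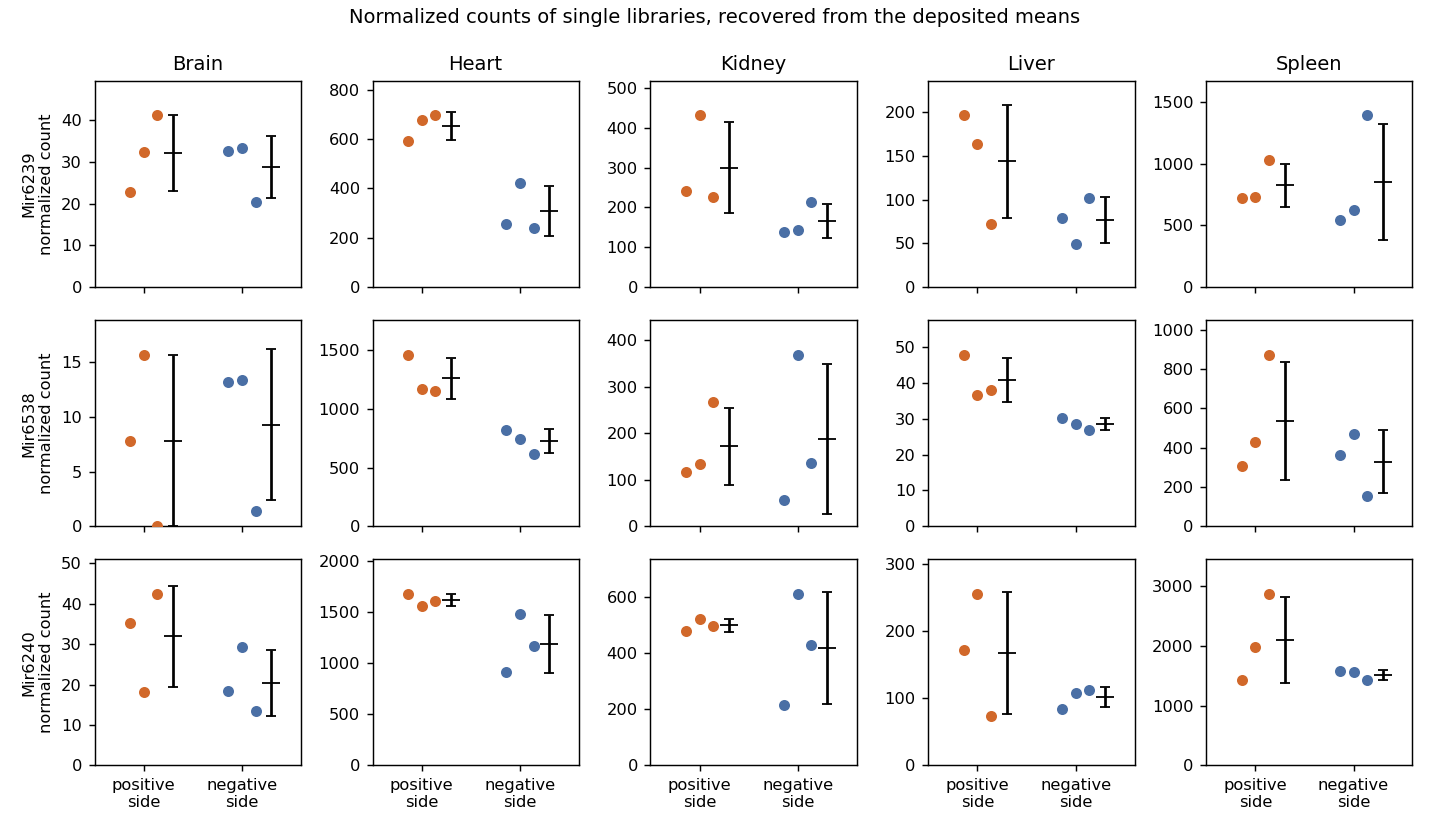
Normalized counts of Mir6239, Mir6538 and Mir6240 in single libraries of 5 organs, positive side left and negative side right. Points are libraries, and bars show the mean ± SD of 3. In heart no library of the negative side reaches the positive side, while in brain and spleen the sides overlap for each of the 3.

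Outside heart no member passed an adjusted p of 0.05, and none passed an unadjusted p of 0.05, by DESeq2 in the authors' deposited tables. No other tool was run on these values. Over all features 2.23% passed the unadjusted threshold in brain, 4.5% in kidney, 3.9% in liver and 3.48% in spleen. The share of all features that passed the adjusted threshold was 0.0% in brain, 0.0% in kidney, 0.229% in liver and 0.0% in spleen, and the 2 liver features were Mir294 and Mir1958. In liver, kidney and spleen most members still had positive values, with smallest DESeq2 p-values of 0.0659, 0.0597 and 0.0643 in these organs of the authors' deposited tables.

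In liver all 4 log2 fold changes were positive. Mir6236 had 11222, 11801 and 3993 normalized counts on the positive side, against 5234, 5764 and 4146 on the negative side. The other libraries of the positive side were thus high, and its library 3 was the lowest of all 6. The authors' deposited table gave a log2 fold change of 0.84 (SE 0.45, DESeq2 p = 0.0659, adjusted p = 0.991). Mir6239 had 196, 163 and 72.0 normalized counts on the positive side, against 78.9, 49.5 and 101 on the negative side. The same library was again below some of the negative side. Its log2 fold change was 0.91 (SE 0.59, DESeq2 p = 0.119) in the authors' deposited table.

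Mir6240 in liver repeated this, with 173, 256 and 74.0 normalized counts on the positive side, against 84.5, 108 and 113 on the negative side. Its log2 fold change was 0.72 (SE 0.57, DESeq2 p = 0.202) in the authors' deposited table, and without the library at 256 the log2 ratio of side means was 0.28. Mir6538 had 48.0, 36.6 and 38.0 on the positive side, against 30.2, 28.7 and 26.9 on the negative side, and its sides did not overlap. These values rest on 19 to 65 reads a library, and the authors' deposited table gave a log2 fold change of 0.52 (SE 0.65, DESeq2 p = 0.428). Thus 1 of 4 recovered members had separate sides in liver, with the positive side higher. Of the other recovered features, 4.3% had separate sides in that direction.

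In kidney, Mir6239 had 242, 431 and 226 normalized counts on the positive side, against 139, 144 and 214 on the negative side. The sides were apart by a gap of 226 against 214, and the library at 431 stood well above the rest. The authors' deposited table gave a log2 fold change of 0.86 (SE 0.46, DESeq2 p = 0.0597, adjusted p = 0.975). Without the library at 431 the log2 ratio of side means was 0.50. For Mir6236 the authors' deposited table gave 0.75 (SE 0.43, DESeq2 p = 0.0762), which corresponds to side means near 34840 and 20652 on the positive and negative sides.

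Mir6240 in kidney had 478, 524 and 498 normalized counts on the positive side, against 216, 613 and 430 on the negative side, with the highest and the lowest library both on the negative side. Its log2 fold change was 0.25 (SE 0.44, DESeq2 p = 0.569) in the authors' deposited table. The log2 ratio of side means was -0.06 without the library at 216 and 0.63 without that at 613. Mir6538 had 116, 133 and 267 normalized counts on the positive side, against 57.4, 369 and 136 on the negative side. Library 2 of the negative side was the highest for both. For Mir6538 the log2 fold change was -0.13 (SE 0.66, DESeq2 p = 0.846) in the authors' deposited table, and without that library the ratio of side means was 0.83 on the log2 scale. Separate sides with the positive side higher were found for 1 of 3 recovered members, against 7.25% of the other recovered features in that direction.

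In spleen, Mir6240 had 1433, 1990 and 2876 normalized counts on the positive side, against 1573, 1558 and 1425 on the negative side. The spread of the positive side was the larger, 2100 ± 728 against 1519 ± 81.8 (SD, n = 3 each). The authors' deposited table gave a log2 fold change of 0.47 (SE 0.28, DESeq2 p = 0.0919). Without the library at 2876 the log2 ratio of side means was 0.17. Mir6538 had 306, 427 and 875 on the positive side, against 363, 471 and 155 on the negative side, and library 3 of the positive side was again the highest. Its log2 fold change was 0.70 (SE 0.42, DESeq2 p = 0.10) in the authors' deposited table. Without that library the ratio of side means was 0.15 on the log2 scale, and without library 3 of the negative side it was 0.36.

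Mir6239 in spleen had 717, 727 and 1026 normalized counts on the positive side, against 543, 624 and 1390 on the negative side. Library 3 of the negative side was high for Mir6239 and low for Mir6538. The authors' deposited table gave Mir6239 a log2 fold change of -0.05 (SE 0.35, DESeq2 p = 0.888). Without the library at 1390 the log2 ratio of side means was 0.50. Mir6236 had a log2 fold change of 0.50 (SE 0.27, DESeq2 p = 0.0643) in the authors' deposited table, with side means near 128583 and 90814 on the positive and negative sides. None of the 3 recovered members had separate sides, against 6.98% of the other recovered features with the positive side higher.

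In brain, Mir6236 had 1278, 1104 and 1353 normalized counts on the positive side, against 805, 2429 and 766 on the negative side. A single library of the negative side was thus the highest of the 6. The log2 fold change was -0.10 (SE 0.40, DESeq2 p = 0.805) in the authors' deposited table, and the ratio of side means without that library was 0.66 on the log2 scale. Mir6240 had 35.3, 18.2 and 42.5 on the positive side, against 18.5, 29.4 and 13.5 on the negative side, from 10 to 68 reads a library. Mir6239 had 22.9, 32.2 and 41.1 on the positive side, against 32.5, 33.4 and 20.3 on the negative side. Their log2 fold changes were 0.64 and 0.14 (SEs 0.73 and 0.66, DESeq2 p = 0.380 and 0.829) in the authors' deposited table. For Mir6240 the log2 ratio of side means was between 0.39, without library 3 of the positive side, and 1.00, without library 2 of the negative side.

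Mir6538 in brain had 7.79, 15.7 and 0 normalized counts on the positive side, against 13.2, 13.4 and 1.35 on the negative side, from at most 19 reads. The authors' deposited table gave -0.23 with an SE of 1.40 (DESeq2 p = 0.868), so its brain contrast was not measurable at this depth. No recovered member of the 4 had separate sides in brain, against 5.96% of the other recovered features with the positive side higher.

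**Figure D3:**
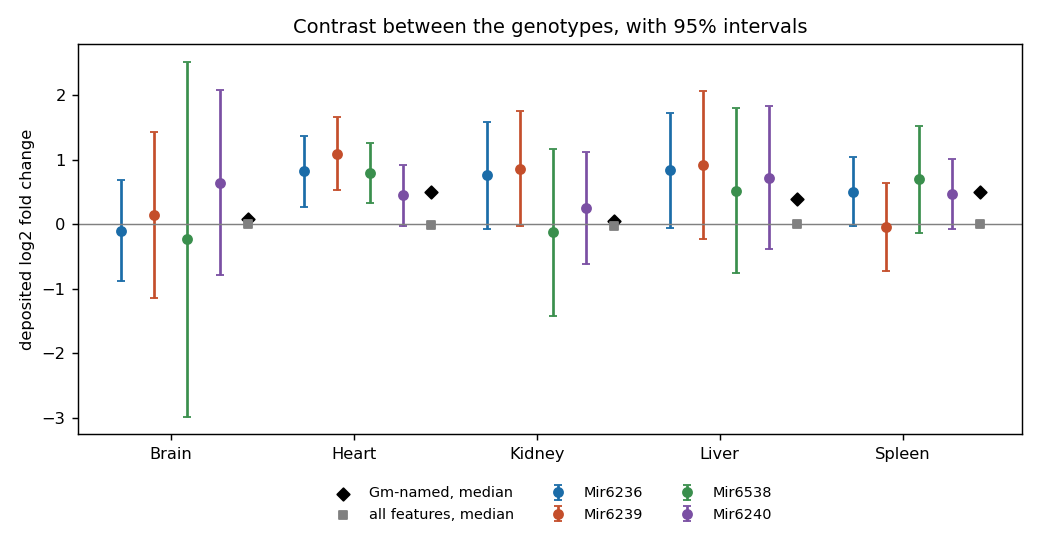
Deposited log2 fold changes of the 4 precursors in 5 organs with 95% intervals, beside the median over Gm-named features and over all features with a mean of at least 10. The medians of Gm-named features are 0.09, 0.50, 0.05, 0.39 and 0.50 in brain, heart, kidney, liver and spleen, and those of all features lie within 0.04 of 0.

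The fold change of each member was set against itself between brain, kidney, liver and spleen, by the difference of the DESeq2 estimates over its combined SE, for all features with both. That made 24 comparisons over 6 pairs of organs, and none passed an adjusted p of 0.05, with 0 below an unadjusted p of 0.05. Over all features, 0.134% passed between kidney and liver and 0.0% in each of the other 5 pairs. Largest beside its SE was that of Mir6239, kidney minus spleen, a log2 difference of 0.91 (SE 0.57, adjusted p = 0.996 from the DESeq2 estimates). Its 95% interval ran from -0.22 to 2.03, so neither a difference of 0 nor one of 2 log2 units lay outside it. For Mir6236 the difference of brain minus liver was -0.93 (SE 0.60), and that of brain minus kidney -0.85 (SE 0.58). Mir6240 had the narrowest range of fold changes over the organs, from 0.25 to 0.72. Against heart, where no test is given, the Mir6239 fold change was 1.14 higher than in spleen (SE 0.45) and 0.23 higher than in kidney (SE 0.54). For Mir6236 heart and liver differed by -0.02 (SE 0.53).

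Gm-named features were mostly positive in heart, spleen and liver. In heart 35 of 43 Gm-named features with a mean of at least 10 had positive log2 fold changes (median 0.50), against 206 of 427 over all features (median -0.01). In spleen it was 40 of 48 (median 0.50), against 224 of 450 over all (median -0.00025). In liver it was 24 of 30 (median 0.39), against 200 of 393 (median 0.0074), but of the 3 whose liver mean reached 1000 only 1 was positive (median -0.29). Brain had 18 of 31 positive (median 0.09), against 259 of 519 over all (median -0.0028). Kidney had 20 of 36 (median 0.05), against 208 of 432 over all (median -0.03). The members were positive in 4 of 4 cases in heart and in liver, 3 of 4 in kidney and spleen, and 2 of 4 in brain. Their medians over those with a mean of at least 10 were 0.81 in heart, 0.78 in liver, 0.50 in kidney, 0.48 in spleen and 0.14 in brain. The members' median was higher than that of the Gm-named features in heart, liver, kidney and brain, but not in spleen. No test was made of these gaps.

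**Figure D4:**
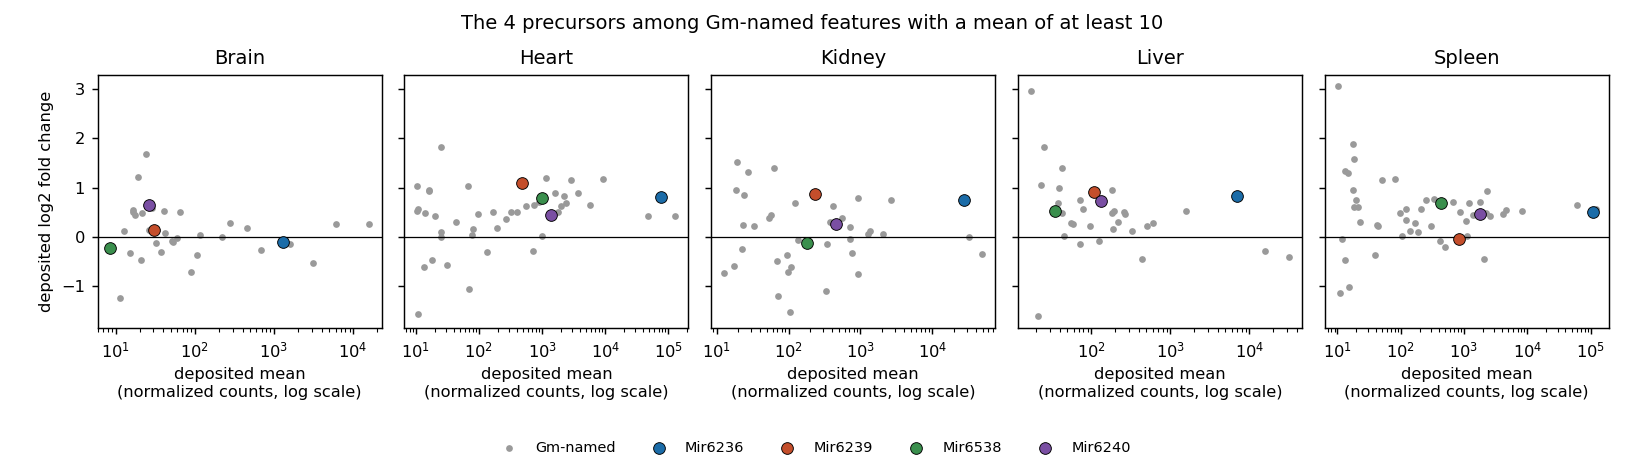
Deposited log2 fold change against the deposited mean on a log scale, for Gm-named features with a mean of at least 10 (grey) and the 4 precursors (coloured, Mir6538 in brain with a mean of 8.57), with 1 panel per organ. In heart the 4 precursors and the 12 Gm-named features whose mean reaches 1000 lie above 0, while in brain both kinds fall on either side.

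The most abundant Gm-named features did not have the sign of Mir6236 in every organ. Gm54610 and Gm54588, the highest of them in each organ, both had 0.42 in heart and had 0.56 and 0.64 in spleen as log2 fold changes in the authors' deposited tables. In kidney they stood at -0.35 and 0.0042, and in liver at -0.40 and -0.29, in the authors' deposited tables, where Mir6236 was at 0.75 and 0.84. All 12 Gm-named features whose heart mean reached 1000 were positive there and in spleen. Of these, 10 were positive in liver, 8 in kidney and 5 in brain.

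The features nearest to each member by their Wald statistics over the 5 organs, among the same 323, included many Gm-named ones, most often for Mir6538 and Mir6236. For Mir6236 they were Gm56171, Gm54514 and Gm54453. Mir6239 had Gm54453, Gm54514 and Gm56194 nearest, and Mir6538 had Gm55936, Gm55118 and Gm55276. Those of Mir6240 were Gm54351, Gm54587 and Mir19a. Of the 20 nearest features, 14 were Gm-named for Mir6538, 13 for Mir6236, 9 for Mir6240 and 7 for Mir6239, out of 24 among the features compared. These distances include the heart values with which the members were picked, and none was tested.

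Other late or doubtful microRNA entries did not lean the same way everywhere. The list of entries often noted to overlap other RNAs was chosen from general knowledge, and its membership is not certain. The tables hold 11 of its precursors. Those with a mean of at least 10 were positive in 7 of 8 cases in heart (median 0.32). In spleen it was 6 of 7 (median 0.22), in kidney 0 of 6 (median -0.49) and in liver 1 of 6 (median -0.17). In brain it was 4 of 5 (median 0.23). From that list Mir3963, the nearest to Mir6538 by level, had log2 fold changes of 0.53 in heart, 0.38 in spleen, 0.15 in liver, 0.23 in brain and -0.09 in kidney, in the authors' deposited tables. Of other features between Mir6000 and Mir6999, 7 of 15 were positive in heart (median -0.40), 2 of 18 in kidney (median -1.01), 6 of 15 in liver (median -0.56), 6 of 12 in spleen (median 0.10) and 21 of 39 in brain (median 0.02). Between Mir5000 and Mir5999 it was 8 of 11 in heart (median 0.16), 10 of 17 in spleen (median 0.14), 3 of 14 in kidney (median -0.47), 6 of 12 in liver (median 0.11) and 5 of 12 in brain (median -0.17). The 10 abundant, well-established microRNAs had medians between -0.06 and 0.30.

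Library by library, several members stood high or low beside the Gm-named features. For each organ the level of a feature in a library was divided by its mean over the 6 libraries. The median was taken over the recovered Gm-named features, 27 to 37 per organ. Beside the members, no feature with a mean above 1948 was recovered, so the most abundant Gm-named features are left out. In liver that median was 1.40, 1.35 and 0.487 on the positive side, against 0.734, 1.16 and 0.666 on the negative side. Mir6236 stood at 1.6, 1.68 and 0.568 on the positive side, against 0.745, 0.820 and 0.590 on the negative side. Mir6240 stood at 1.28, 1.90 and 0.549 on the positive side, against 0.627, 0.802 and 0.838 on the negative side. Library 3 of the positive side was thus the lowest for Mir6236, Mir6240 and the Gm-named median. The others departed from this, since Mir6538 was at 1.09 in that library and Mir6239 was lowest in library 2 of the negative side, at 0.449. In that library of the negative side the Gm-named median was above 1 and all 4 members were below it. Over 120 features named Mir1 to Mir499 or Mirlet7, library 3 of the positive side was at 0.942. Their median in library 2 of the negative side was 0.802, the lowest of the 6.

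In spleen the Gm-named median was 0.789, 1.15 and 1.41 on the positive side, against 0.892, 0.895 and 0.713 on the negative side. Mir6240 stood at 0.792, 1.10 and 1.59 on the positive side, against 0.870, 0.861 and 0.788 on the negative side. Mir6538 was also highest in library 3 of the positive side, at 2.02, and lowest in library 3 of the negative side, at 0.358. Mir6239 departed from this, with 1.66 in that last library.

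In kidney library 1 of the negative side was the lowest for the Gm-named median, at 0.510, for Mir6239, at 0.597, for Mir6538, at 0.319, and for Mir6240, at 0.470. It was the highest for the early microRNAs, at 1.13. Library 2 of the negative side was the highest for the Gm-named median, Mir6538 and Mir6240, at 1.31, 2.05 and 1.33, and the lowest for the early microRNAs, at 0.651. Mir6239 was at 0.620 there. In heart the Gm-named median was 1.14, 0.979 and 1.18 on the positive side, against 0.710, 1.04 and 0.786 on the negative side. Its sides thus overlapped, where those of the 3 recovered members did not. The median there covers 32 features and leaves out abundant ones such as Gm56194 and Gm54453, which were not recovered. In brain the Gm-named median was 0.915, 0.961 and 1.17 on the positive side, against 0.805, 1.14 and 0.801 on the negative side. The part of these shared library differences in the members' contrasts was not tested.

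**Figure D5:**
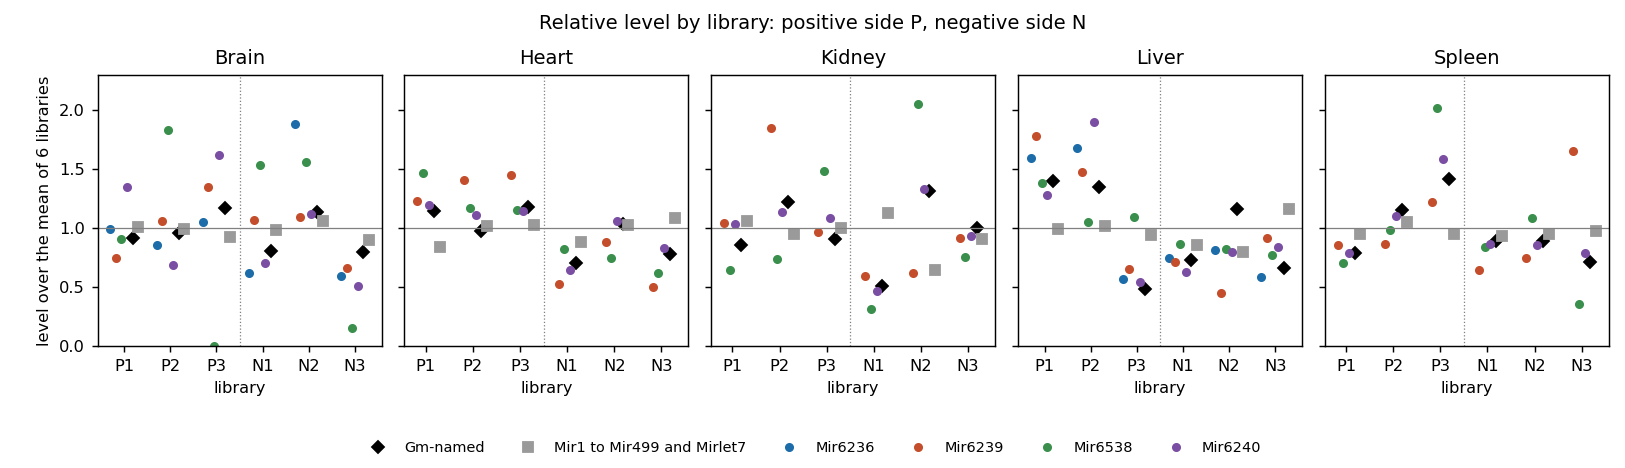
Level of each recovered precursor in a library over its mean of 6 libraries, beside the medians of recovered Gm-named features and of recovered features named Mir1 to Mir499 or Mirlet7. Libraries P1 to P3 are the positive side and N1 to N3 the negative side, numbered by falling size factor within an organ, and N1 of kidney is the lowest library for the Gm-named median and the 3 precursors drawn there.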

How the data were processed

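Per the labels' protocols, RNA was extracted with a phenol-based reagent and libraries were made with a NEXTflex small RNA kit. The submitters' processing notes name featureCounts and Subread 2.0.3, the mouse build GRCm39, and DESeq2 as the authors' tool for the contrast. The sources used here do not give the aligner, the annotation or the handling of reads that match several places, so reads of near-identical copies may have been split or shared.

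The deposited mean is a signal, the authors' mean of the counts of 6 libraries after division by size factors. Per the file headers, the authors deposited log2 values for the fold change and its error, a score (the Wald statistic, the ratio of these) and the p-value of that score, raw and adjusted. A row without a name was left out, 1 per table. No column with values per sample was left unused (0).

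The members and all lists were chosen with earlier results of these data known. The threshold was an adjusted p of 0.05. Named features are the members, the 3 most like each by level and by Wald statistics, the neighbours by mean, features past the threshold, and up to 3 of a list by highest mean. The likeness by level used log2 of the mean plus 1, as a share of the organ's sum, over features whose mean reached 10 in all organs. Differences between organs were divided by their combined standard error and referred to the normal distribution, with Benjamini-Hochberg adjustment over all features, which treats organs of the same mice as independent.

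Size factors were found from means under 1, each a sum of whole reads over the factors (relative tolerance 1e-11). A member's reads were those whose sum gave the mean and whose fit with 2 groups and no batch term, the positive side as base level, gave the deposited fold change within 1e-13. Where the 6 normalized counts summed to under 400, all combinations were tried (4 of the 17 matches). For the other 13 the search was built to take in libraries whose relative deviations from their side mean have a sum of squares of at most 1, and reached further only in part. In 3 of these 13 the match found lay beyond 1, at up to 1.95, where a second match outside the search was not looked for. The recovered values are normalized counts. Other features with a mean of at least 10 were searched under a lower limit on the number of combinations than the members. Per organ 256 to 319 of them were recovered and 121 to 197 were not searched. No match was found for 4 in kidney and 12 in liver. Read recovery was tried on 200 simulated features, of which 200 came back right and 0 wrong. They were drawn with means from 10 to 1000 and a single dispersion. Members outside this range, such as Mir6236 in liver at 7027 and Mir6538 in brain at 8.57, were not covered. The test of a difference between organs was also run on simulated data. Its errors were drawn as normal with the combined standard error, so it could not check whether organs of the same mice are independent. Values by library and class medians by library were added after seeing the data. Figures and statistics used Python 3.11.15, numpy 2.4.6, pandas 2.3.3, scipy 1.17.1, numba 0.67.0 and matplotlib 3.10.9.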

Additional observations from a re-analysis of the deposited data

How the results depend on the processing

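In heart 1 member, Mir6239, passed an adjusted p of 0.05 as deposited. Adjusted over every feature with a p-value, or over Mir and Mirlet symbols alone, 0 passed, with Mir6239 at 0.0705 and 0.0825. Adjusted over means of at least 100, 2 passed, Mir6538 being the other at 0.0483. In the other organs 0 passed under any adjustment. The order of organs by share was the same with the other denominators for each member. Of Gm-named features with a mean of at least 1000, the percentage positive was 100% in heart (12 features) and 83.3% in kidney (6). It was 33.3% in liver (3), 92.9% in spleen (14) and 50.0% in brain (4). Over all features with such a mean it was 48.3%, 55.5%, 40.6%, 46.5% and 45.1%, in the same order of organs. All 20 fold changes kept their sign when centred on the organ median, and all 17 as a ratio of side means. Neither is a strong check. The organ medians lay between -0.033 and 0.0074, so centring moved the values little. The recovered reads were kept because they gave the deposited fold change, so their side means carry its sign. With the highest library left out, 4 of 17 changed sign, to 0.66 for Mir6236 and -0.061 for Mir6239 in brain, 0.50 for Mir6239 in spleen and 0.83 for Mir6538 in kidney, and the cause was not tested. Leaving out each library in turn, 6 of 17 changed sign at least once. Their log2 ratios ranged from -0.38 to 0.66 for Mir6236 in brain, from -0.061 to 0.35 for Mir6239 in brain, from -1.25 to 0.34 for Mir6538 in brain, from -0.29 to 0.50 for Mir6239 in spleen, from -0.59 to 0.83 for Mir6538 in kidney and from -0.061 to 0.63 for Mir6240 in kidney. No left-out value exists for Mir6236 in heart, kidney and spleen, whose reads were not searched. No paired analysis was possible because the genotypes share no mouse and the tables hold no labelled values per library. With 3 libraries a side the precision is low, and Mir6538 in brain also rests on only 60 reads.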
